A study of Canis lupus familiaris with 12 samples.

Results

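The common gamma chain cytokine receptors are described here as 7 genes of a canine immuno-oncology panel of 780 endogenous and 20 housekeeping genes: IL2RG, IL2RB, IL2RA, IL15RA, IL4R, IL7R and IL21R. They were chosen by name as chains of this receptor family, and all 7 were found on the panel. RNA of lymph nodes from dogs with sinonasal cancer was counted by NanoString nCounter, in which fluorescent barcodes hybridised to each transcript are counted without amplification. The tumor was treated with stereotactic body radiation therapy (SBRT), as 3 fractions of 10 Gy, in every dog. In 3 dogs the field also took in the submandibular and retropharyngeal nodes of both sides (elective nodal irradiation, ENI; irradiated nodes), and in the other 3 it did not (non-irradiated nodes), with 6 samples in each group.

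The dogs of the irradiated group were 7 to 14 years old (1 female and 2 males) and those of the non-irradiated group 3 to 9 years old (2 females and 1 male). All had been spayed or neutered. The groups differed in age and in sex, and with 3 dogs in each neither can be told apart from treatment. Per the study's methods the ipsilateral mandibular nodes were removed after SBRT. No node from before treatment was used here, so lower and higher mean in comparison with the nodes of the other dogs. Each dog gave 2 samples, and the labels do not say how these differ. The labels name lymph node as the tissue, whereas the extraction protocol names tumor tissue. The lymphoid genes CCL19, CCL21, CXCL13 and CCR7 lay between 1199 and 17547 normalized counts in both groups, and 4 epithelial genes, EPCAM, CDH1, KRT7 and MUC1, between 8.43 and 285. The keratin gene KRT18, which is outside that list and was named after its value was seen, had 153 normalized counts (SD 61.8) in irradiated and 71.5 (SD 14.3) in non-irradiated nodes. KRT18 was higher in irradiated nodes (log2 ratio 1.09 ± 0.23 SE, adjusted p = 0.0215 by limma's moderated comparison over the panel). Its call ended with unequal variances (adjusted p = 0.0586), by Benjamini-Yekutieli adjustment (0.156) and with a dog's samples assumed identical (0.818), and the part of epithelial cells in the values below was not tested.

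The family takes its name from IL2RG, the common gamma chain (CD132), which joins the receptors for IL-2, IL-4, IL-7, IL-9, IL-15 and IL-21. The partner chain sets which cytokine is bound, and signals run through the kinases JAK1 and JAK3 to STAT factors, chiefly STAT5, STAT6 or STAT3. These cytokines maintain and expand lymphocytes, and inherited loss of IL2RG causes X-linked severe combined immunodeficiency in dogs as in humans. In the RefSeq annotation of the dog assembly UU_Cfam_GSD_1.0, IL2RG lies on chromosome X, IL2RB on chromosome 10 and IL7R on chromosome 4. IL2RA and IL15RA are direct neighbours on chromosome 2, as are IL21R and IL4R on chromosome 6, with 0 annotated genes between them in each pair.

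To determine whether the receptor chains differed with nodal irradiation, the values that the authors deposited for each group were compared. They deposited 1 value and 1 SD per group for each gene, which are printed here as the authors' value and SD. Values of single samples were not used, so samples could not be plotted or left out one by one, and the depth of each sample is unknown. All 7 receptor genes had a lower value in irradiated nodes, where 428 of 780 panel genes (54.9%) did. The log2 ratio, taken as irradiated over non-irradiated, had a median of -0.35 for the receptors and -0.05 for the panel. A single receptor gene, IL2RB, passed the threshold of an adjusted p of 0.05 in limma's moderated comparison over the whole panel. Over the panel 3.59% of genes passed it, and 1.92% passed with a lower value in irradiated nodes. At an unadjusted p under 0.05 there were 2 receptor genes, IL2RB and IL2RG, both lower in irradiated nodes. Over the panel 21.9% of genes had such a p in either direction (66 higher and 105 lower). The comparison counts the 2 samples of a dog as if they came from separate dogs, and its p-values are too small to the extent that a dog's samples are alike. In bulk tissue, fewer cells that carry a receptor and less RNA per cell cannot be told apart.

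**Figure D1:**
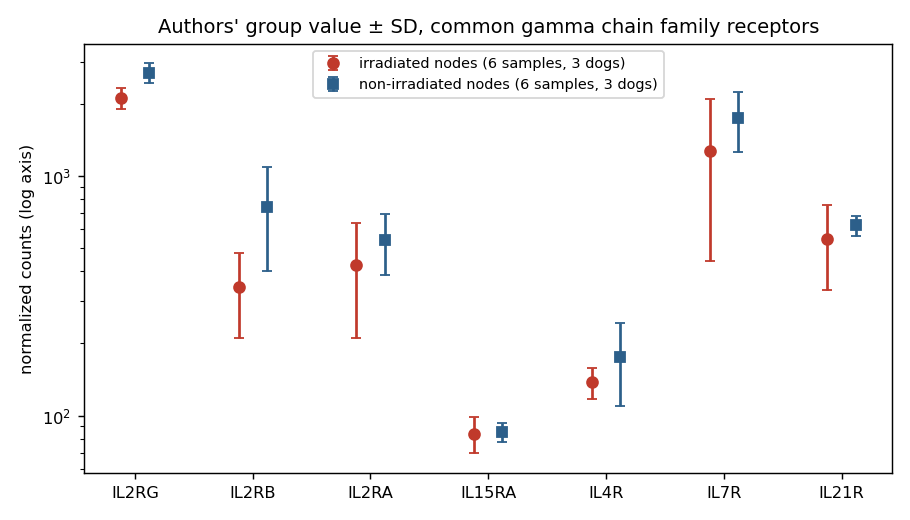
Authors' value (points) and SD (bars) in normalized counts on a log axis for the 7 receptor genes, with irradiated nodes as circles and non-irradiated nodes as squares, each from 6 samples of 3 dogs. The circle lies below the square for every gene, and the bars of IL2RG are the only ones that do not overlap.

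The shared chain IL2RG had an authors' value of 2125 normalized counts (SD 221) in irradiated and 2702 (SD 256) in non-irradiated nodes. The ranges of 1 SD did not overlap, ending at 2346 in irradiated and starting at 2445 in non-irradiated nodes. Such a gap was found for 67 of the 780 panel genes (8.59%) and for none of the other 6 receptors. The fold was small, with a level 1.27 times lower in irradiated nodes (log2 ratio -0.35 ± 0.13 SE, 95% interval -0.63 to -0.06). By limma's moderated comparison IL2RG did not pass over the panel (adjusted p = 0.138, unadjusted p = 0.0204).

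This result rests on how the spread was estimated. The log2 SD of IL2RG was 0.15 in irradiated and 0.14 in non-irradiated nodes, below the panel medians of 0.32 and 0.43. With its own variance alone the SE was 0.08 and IL2RG passed (adjusted p = 0.0421), as it did with unequal variances (adjusted p = 0.0497). Moderation, which draws each variance toward that of the panel, widened the SE to 0.13. The genes closest to IL2RG in level in both groups were the lysosomal membrane protein gene LAMP1, the adhesion receptor gene CD44 and the complement gene C1QB, at distances of 0.12, 0.14 and 0.16 on the log2 scale. LAMP1 had a log2 ratio of -0.42, CD44 of -0.34 and C1QB of -0.11. With 2 group values per gene, this nearness describes levels only.

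IL2RB, the beta chain that the IL-2 and IL-15 receptors share, had the log2 ratio farthest from 0 in the family. Its authors' value was 344 normalized counts (SD 134) in irradiated and 746 (SD 344) in non-irradiated nodes, so the irradiated level was 46.1% of the other. IL2RB was 2.17-fold lower in irradiated nodes (log2 ratio -1.12 ± 0.29 SE, 95% interval -1.74 to -0.50, adjusted p = 0.0487), and its log2 ratio was the 12th lowest of 780. The spread was wide in both groups. The ranges of 1 SD overlapped, reaching up to 477 in irradiated and down to 402 in non-irradiated nodes, and the SD was 38.9% and 46.1% of the value.

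The adjusted p of IL2RB lay just under the threshold, and the call ended under 7 of 9 other settings. It was 0.0641 and 0.0592 when ratios were centred on the endogenous and the housekeeping median, 0.068 with the gene's own variance, 0.0855 with unequal variances and 0.0941 with the SD read as a coefficient of variation. It was 0.352 by Benjamini-Yekutieli adjustment. Had each dog's samples been identical, an assumption and no fit to values per dog, it would be 0.855 (unadjusted p = 0.0189).

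**Figure D2:**
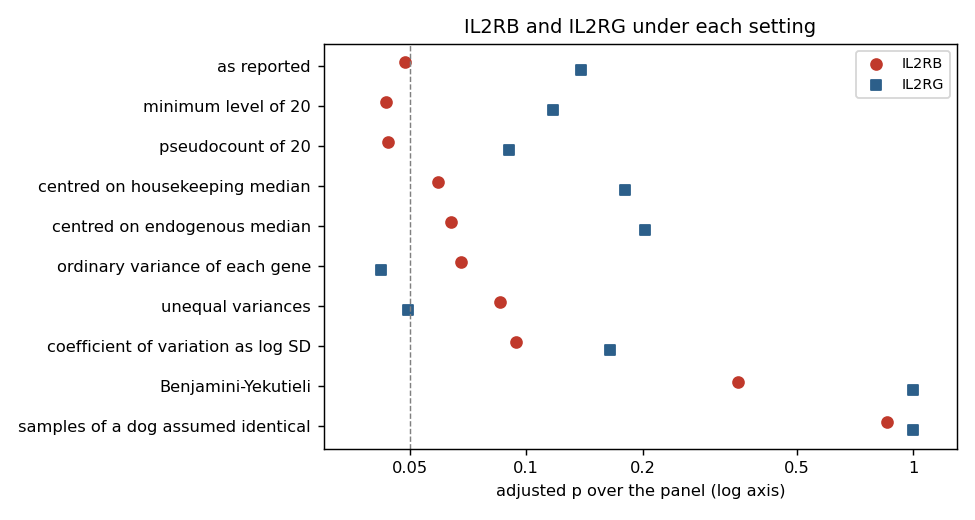
Adjusted p over the panel (log axis) of IL2RB (circles) and IL2RG (squares) as reported and under 9 other settings, with the threshold of 0.05 dashed. IL2RB passed as reported (0.0487), with a minimum level (0.0436) and with a pseudocount (0.0439), whereas IL2RG passed with the gene's own variance (0.0421) and with unequal variances (0.0497).

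The private alpha chains raise the affinity of these receptors for their ligand. IL2RA, which encodes CD25 and marks regulatory and activated T cells, had an authors' value of 425 normalized counts (SD 215) in irradiated and 541 (SD 156) in non-irradiated nodes. Its log2 ratio of -0.35 ± 0.28 SE had an interval from -0.95 to 0.25 (adjusted p = 0.518). This estimate was as far below 0 as that of IL2RG, but with an SE of 0.28 against 0.13 the interval covered both no difference and a nearly 2-fold one (1.93-fold lower). IL15RA, which presents IL-15 to neighbouring lymphocytes, had nearly the same value in both groups, 84.0 normalized counts (SD 14.6) in irradiated and 85.4 (SD 7.92) in non-irradiated nodes. Its log2 ratio was -0.02 ± 0.15 SE (interval -0.34 to 0.29, adjusted p = 0.961), so a level up to 1.27 times lower lay within the interval. A ratio this near 0 has no settled direction: centring on the endogenous or the housekeeping median, which shifts every gene alike, made it 0.02 or 0.0043.

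IL4R, IL7R and IL21R each pair with IL2RG, to bind IL-4, IL-7 and IL-21, and IL7R also serves the thymic stromal lymphopoietin receptor with another chain. IL7R, the receptor for the survival factor of naive and memory T cells, had an authors' value of 1276 normalized counts (SD 834) in irradiated and 1759 (SD 496) in non-irradiated nodes. The log2 ratio was -0.46 ± 0.32 SE (interval -1.14 to 0.21, adjusted p = 0.435), next in size to that of IL2RB. Its SD in irradiated nodes was 65.4% of the value, the widest of the family.

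IL4R, which carries the signals of IL-4 and IL-13, had an authors' value of 137 normalized counts (SD 20.7) in irradiated and 176 (SD 66.9) in non-irradiated nodes. Its log2 ratio was -0.36 ± 0.22 SE (interval -0.83 to 0.11, adjusted p = 0.38). IL21R, the receptor for the follicular helper T cell cytokine IL-21, had 545 normalized counts (SD 211) in irradiated and 623 (SD 60.3) in non-irradiated nodes. Its log2 ratio was -0.19 ± 0.21 SE (interval -0.65 to 0.27, adjusted p = 0.656). For both genes the range of 1 SD of one group lay wholly inside that of the other, and the difference was within the spread of the samples.

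**Figure D3:**
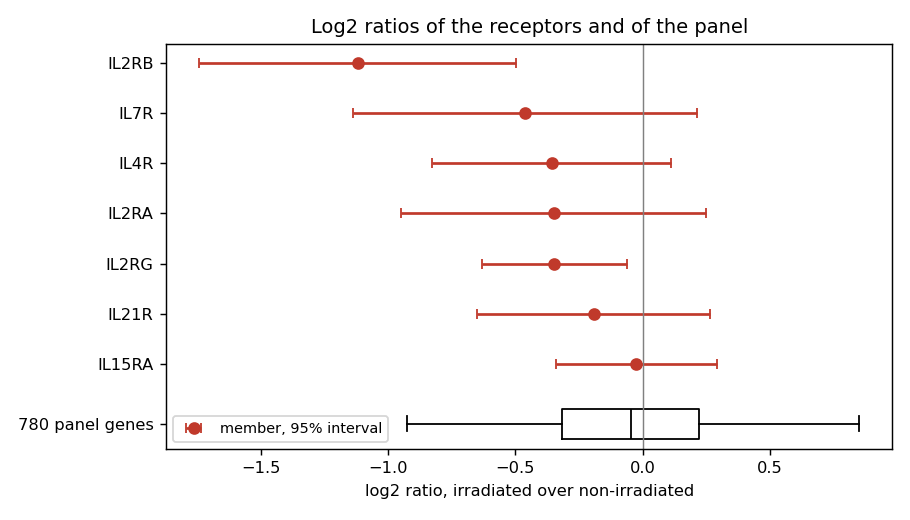
Log2 ratio between irradiated and non-irradiated nodes (points) with its 95% interval over samples (bars) for the 7 receptor genes, above a box of the log2 ratios of all 780 panel genes (median, quartiles, whiskers over the middle 95%). The intervals of IL2RB and IL2RG lie below 0, and IL2RB at -1.12 lies beyond the lower whisker.

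Among the chains of the IL-2 and IL-15 receptors, the log2 ratio of IL2RB differed from that of IL2RG by -0.77, and their intervals overlapped, whereas IL2RA differed from IL2RG by -0.003 and IL15RA by 0.32. Among the partners of single cytokines, IL4R differed from IL2RG by -0.01, IL7R by -0.12 and IL21R by 0.15. These differences were not tested, because the error of a difference between 2 genes of the same samples needs values of single samples.

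The receptors also differed in how widely the samples of a group were spread. The log2 SD was larger in irradiated than in non-irradiated nodes for 5 of the 7 (IL2RG, IL2RA, IL15RA, IL7R and IL21R), whereas 34.6% of panel genes had the larger SD in irradiated nodes. For IL2RG the values were close, at 0.15 in irradiated and 0.14 in non-irradiated nodes. The larger SD in irradiated nodes was not limited to receptors. The T cell markers CD3D, CD4, CD5, CD6 and CD8A had it too, whereas CD2, CD3E, CD3G and CD8B had the smaller SD there. IL21R had a log2 SD of 0.51 in irradiated and 0.14 in non-irradiated nodes, a ratio of 3.67. For IL7R it was 0.76 and 0.39, and for IL2RA 0.63 and 0.39. IL4R went the other way, with 0.21 in irradiated and 0.50 in non-irradiated nodes, and IL2RB had 0.51 and 0.59. The differences in spread were not tested, and whether they come from between dogs or from within a dog is not known here.

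**Figure D4:**
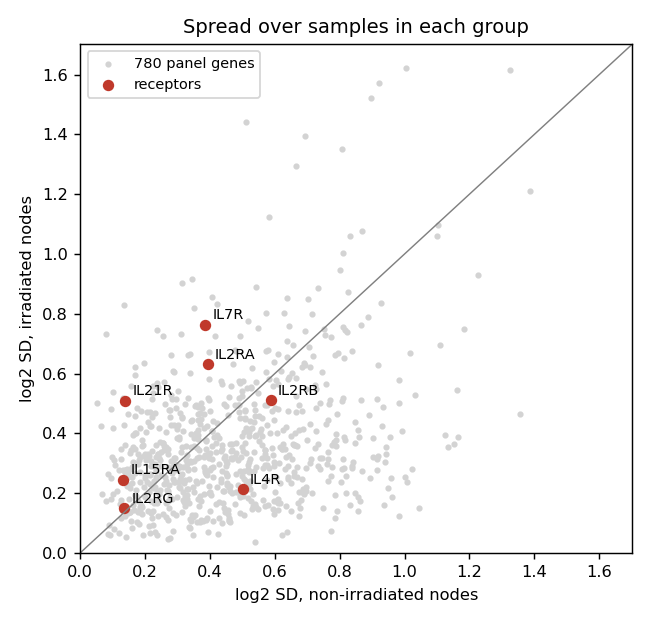
Log2 SD over samples in non-irradiated (horizontal) and irradiated nodes (vertical) for 780 panel genes (grey) and the 7 receptor genes (red), with the line of equal spread. IL21R (0.14 and 0.51) and IL7R (0.39 and 0.76) lie above the line, and IL4R (0.50 and 0.21) lies below it.

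Of 7 measured ligands of the family 3 were higher and 4 lower in irradiated nodes, with a median log2 ratio of -0.11, and 0 passed the threshold by limma's comparison (1 had an unadjusted p under 0.05, in the higher direction). That gene was IL15, the cytokine that IL2RB and IL15RA receive. It had an authors' value of 375 normalized counts (SD 30.3) in irradiated and 255 (SD 81.1) in non-irradiated nodes, with a log2 ratio of 0.55 ± 0.19 SE (adjusted p = 0.11). IL21 had a log2 ratio of 0.24 ± 0.24 SE and IL7 of -0.16 ± 0.21 SE. IL13 was counted among the 7 ligands, and among the 4 lower ones, because it acts through IL4R. It is not among the cytokines named above for receptors with IL2RG. IL13 had a log2 ratio of -0.35 ± 0.21 SE but a level of only 25.1 normalized counts (SD 3.88) in irradiated nodes. IL13RA1, the other chain of the IL-13 receptor, had a log2 ratio of -0.15 ± 0.22 SE and the decoy receptor IL13RA2 of 0.71 ± 0.73 SE.

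The kinases and STAT factors below the receptors were mostly lower, but none passed. Of 11 genes 9 were lower and 2 higher, with a median log2 ratio of -0.23, and 1 had an unadjusted p under 0.05. That gene was JAK1, the kinase bound to the partner chains, at 2210 normalized counts (SD 769) in irradiated and 3383 (SD 346) in non-irradiated nodes (log2 ratio -0.61 ± 0.20 SE, adjusted p = 0.0931). JAK3, the kinase that IL2RG binds, had a log2 ratio of -0.36 ± 0.31 SE, close to that of IL2RG itself but with a larger error. STAT6, which acts after IL-4, had -0.43 ± 0.29 SE and STAT4 -0.34 ± 0.24 SE. STAT5A (-0.18 ± 0.19 SE) and STAT5B (-0.01 ± 0.17 SE), the main factors after IL-2, IL-7 and IL-15, had small ratios.

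Among genes that these cytokines are known to induce or to use, directions were mixed. Of 11 survival and growth targets 3 were higher and 8 lower (median -0.18), and 1 passed. GZMB, the granule protease of cytotoxic cells, was higher, with 79.8 normalized counts (SD 24.8) in non-irradiated and 151 (SD 43.9) in irradiated nodes (log2 ratio 0.92 ± 0.23 SE, adjusted p = 0.0419). Its call ended with the gene's own variance (adjusted p = 0.055), with unequal variances (0.0648) and with the SD read as a coefficient of variation (0.0753), as well as by Benjamini-Yekutieli adjustment (0.303) and with a dog's samples assumed identical (0.883). PRDM1 had a log2 ratio of 0.80 ± 0.30 SE, GATA3 of -0.67 ± 0.31 SE and the survival gene BCL2 of -0.50 ± 0.33 SE. The feedback inhibitor CISH, a target of STAT5, had 34.4 normalized counts (SD 13.5) in irradiated and 50.2 (SD 7.85) in non-irradiated nodes (log2 ratio -0.55 ± 0.22 SE, adjusted p = 0.17). SOCS1, the other inhibitor measured, had a log2 ratio of 0.22 ± 0.22 SE.

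Of 8 genes of PI3K, AKT and mTOR signalling 7 were lower and 1 higher, with a median of -0.36, and 0 passed (2 had an unadjusted p under 0.05). AKT1 had a log2 ratio of -0.49 ± 0.27 SE, MTOR of -0.46 ± 0.15 SE (adjusted p = 0.094) and PIK3CD, the leukocyte form of the kinase, of -0.39 ± 0.24 SE.

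Receptors of other interleukins and colony-stimulating factors had no common direction. Of 22 genes 10 were higher and 12 lower, the median log2 ratio was -0.03, and 0 passed (2 had an unadjusted p under 0.05, both lower: IL10RA at -0.41 ± 0.15 SE and IL17RB at -0.41 ± 0.16 SE). IL18RAP had a log2 ratio of 0.49 ± 0.24 SE, IL5RA of 0.48 ± 0.34 SE and IL1RL2 of -0.52 ± 0.44 SE, the last at 10.1 normalized counts in irradiated nodes. The 3 interferon receptor chains measured, IFNAR1, IFNAR2 and IFNGR1, had 2 higher and 1 lower, with a median of 0.02 and 0 past the threshold. The median of the gamma chain family, -0.35, lay below both. It was close to the median of the PI3K, AKT and mTOR genes and that of the natural killer cell markers (both -0.36). The T cell markers had a lower median (-0.53), and the JAK and STAT genes a higher one (-0.23). The differences between lists were not tested.

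**Figure D5:**
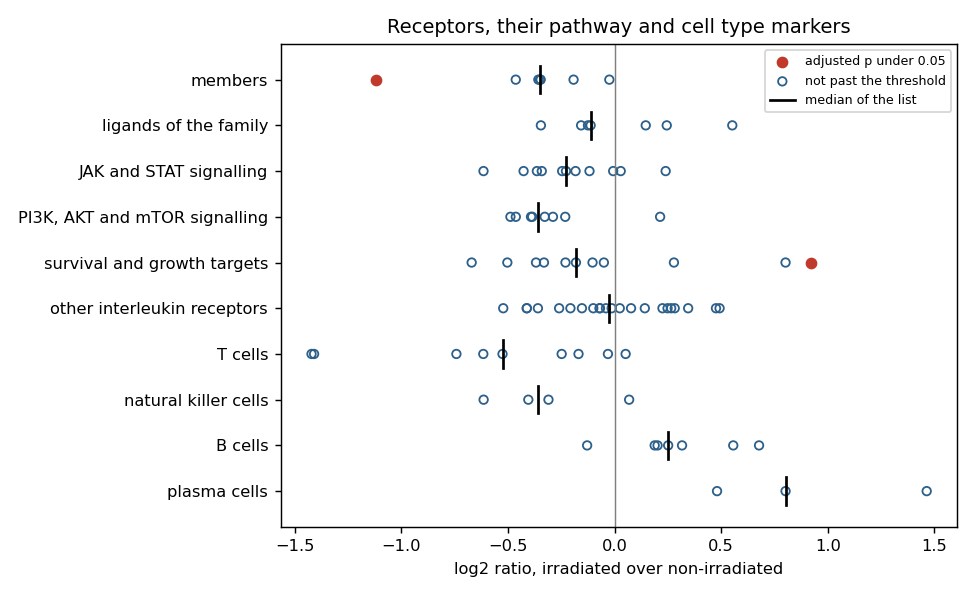
Log2 ratio between irradiated and non-irradiated nodes for the receptors (members), their ligands, signalling genes, targets, other interleukin receptors and cell type markers, 1 point per gene, filled where the adjusted p was under 0.05, with the median of each list as a bar. All 7 receptors lie below 0, as do 8 of 9 T cell markers, while 6 of 7 B cell markers lie above it.

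Because lymphocytes are among the cells that carry these receptors, the markers of the cell types in the node are given beside them. Of 9 T cell markers 8 were lower in irradiated nodes (median log2 ratio -0.53), their summed level was 10148 normalized counts against 13761, and 0 passed, with 3 at an unadjusted p under 0.05. The lowest of the 9 were the CD8 chain genes. CD8A had 201 normalized counts (SD 155) in irradiated and 534 (SD 273) in non-irradiated nodes (log2 ratio -1.41 ± 0.38 SE, adjusted p = 0.0519), and the log2 ratio of CD8B was -1.42 ± 0.44 SE (adjusted p = 0.0797). CD3E had -0.74 ± 0.30 SE and CD6 -0.62 ± 0.43 SE, whereas CD4 had 0.05 ± 0.17 SE. Of the granule genes of cytotoxic cells in the lists, GZMB was higher, as given above, and PRF1 had a log2 ratio of -0.10 ± 0.19 SE. IL2RB, which in humans and mice is carried by CD8 T cells and natural killer cells at rest, lay between CD3E and CD8A in log2 ratio. Of 4 natural killer cell markers 3 were lower (median -0.36, summed level 625 against 715), 0 passed, and NCR1 had a log2 ratio of -0.61 ± 0.22 SE at 18.4 normalized counts in irradiated nodes. Of the regulatory T cell genes FOXP3 had -0.37 ± 0.22 SE and CTLA4 0.20 ± 0.16 SE, beside -0.35 for IL2RA, with 0 past the threshold. The part of these cell types in the receptor values was not tested.

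B cells carry IL4R and IL21R, and of 7 B cell markers 6 were higher (median 0.25, summed level 10184 against 9157), with 0 past the threshold and MS4A1, which encodes CD20, at 0.56 ± 0.26 SE. The 3 plasma cell genes were higher (median 0.80, 0 past the threshold, 2 at an unadjusted p under 0.05). Of 5 macrophage and monocyte genes 3 were lower (median -0.33) and of 5 dendritic cell genes 5 were lower (median -0.32), with 0 past the threshold in either. In the 6 stroma and vessel genes 5 were lower, and PDGFRA, PDGFRB, CXCL12 and CDH5 passed the threshold as lower (log2 ratios -1.67, -0.92, -1.34 and -1.14). Each was farther from 0 than every receptor other than IL2RB, whose -1.12 lay between CDH5 and PDGFRB. With a dog's samples assumed identical these 4 genes did not pass either (adjusted p from 0.203 to 0.855). Of the 5 lymph node genes 3 were higher and 2 lower (median 0.02), with 0 past the threshold. Of the 4 epithelial genes of the list 3 were higher and 1 lower (median 0.36), with 0 past the threshold. Their summed level was lower in irradiated nodes, at 366 normalized counts against 401. The lower gene was CDH1, with a log2 ratio of -0.48 ± 0.16 SE (adjusted p = 0.109 by limma's moderated comparison). KRT18, outside the list, was higher, as given above.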

How the data were processed

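RNA of 12 lymph node samples from 6 dogs was measured on the nCounter FLEX system with the canine immuno-oncology panel, and counts were analysed by the authors in nSolver (version and settings not given in the sources used here). The authors deposited the signal of each probe as 1 normalized count per group, with its SD. Columns of the authors' own comparison (fold, p-value, limits, adjusted p) were not used. The mean log2 ratio of the 20 housekeeping genes was -2.62e-05, as geometric means scaled to these genes give. Chromosomes came from RefSeq, in which 753 of 780 symbols matched.

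The log2 variance of each group was derived from its value and SD, assuming a log-normal spread over 6 samples. Variances were pooled over groups, moderated with limma (version 3.58.1, R 4.3.3; 4.09 prior degrees of freedom beside 10), and two-sided p-values were adjusted over 780 genes by Benjamini-Hochberg, with a threshold of 0.05 and no filter. The alternative with each gene's own variance has the equal-variance form of the unpaired test that the study's methods name, but on variances rebuilt from the deposited SDs. Intervals cover the spread between samples, which may be technical. The procedure was run on simulated data drawn with the log-normal spread that it assumes, so the run could not test that assumption. Other steps used Python 3.11.15.

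The members and gene lists were chosen with earlier results of these data known. Named genes are the members and, of each list, those past the threshold and up to 4 with the largest ratio. CD4, STAT5A, STAT5B and PRF1 were named after their values were seen. A 1 SD range is the authors' value plus or minus the SD. Some genes of the lists are counted but not reported by name here.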

Additional observations from a re-analysis of the deposited data

How the results depend on the processing

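Against 28 genes past the threshold (13 higher, 15 lower), reading the SD as a coefficient of variation gave 16, Benjamini-Yekutieli adjustment 7, the assumption of identical samples of a dog 0 (35 at an unadjusted p under 0.05), unadjusted p-values 171 and a pseudocount of 20 normalized counts 47 (15 higher, 32 lower). A minimum level of 20 gave 38, the gene's own variance 35, unequal variances 29, and centring on the endogenous and housekeeping median 25 and 27. Of the 7 receptors 1 passed as reported, and 0 passed with the coefficient of variation, Benjamini-Yekutieli adjustment, identical samples of a dog or either centring, while 2 had an unadjusted p under 0.05. With the gene's own variance or unequal variances 1 passed, which was IL2RG in place of IL2RB. The ends of these calls under stricter adjustment follow from that setting. Identical samples of a dog brought fewer degrees of freedom and an SE of 0.42 for IL2RB, against 0.29 as reported. Centring left the SE of IL2RB at 0.29 and moved its log2 ratio from -1.12 to -1.07 (endogenous) or -1.09 (housekeeping). The SE was 0.32 with the gene's own variance or unequal variances and 0.33 with the coefficient of variation. Causes beyond these values were not tested. The family median of -0.35 was -0.30 and -0.32 under the 2 centrings and -0.34 with the pseudocount, and the mean was -0.41. The ratio of IL15RA, near 0, became 0.0223 and 0.0043 under the centrings, which shift all genes by a constant. All 7 receptors lay above the minimum level. No paired analysis was possible because no dog is in both groups. Leaving out a dog or a sample was not run, since it needs values of single samples.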
